A study of Homo sapiens with 12 samples.

Results

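The genes described here are the forkhead factors FOXO1, FOXO3 and FOXO4 and 7 genes known as their targets in quiescent or nutrient-starved cells, CCNG2, BCL6, SESN1, SESN3, PIK3IP1, PINK1 and BTG1. They are 10 of the 20531 genes listed in the deposited expression tables, picked by symbol with earlier results of these data known. All 10 passed the filter of at least 10 counts in at least 1 sample in every comparison. The 12 samples were RNAseq libraries of SKBR-3, an established breast cancer line that carries an amplified HER2 gene and lacks the estrogen receptor. The 4 groups of 3 replicates received a non-targeting (NT) siRNA pool followed by DMSO, NT siRNA followed by 300 nM lapatinib, a FOXA1 siRNA pool followed by DMSO, or FOXA1 siRNA followed by 300 nM lapatinib. Lapatinib inhibits the kinases of HER2 and EGFR, and the drug or DMSO was present for 24 h. All groups were transfected, so no group shows cells without siRNA, and a single cell line was used. Nothing in the labels or methods says that replicates were separate cultures, so p-values measure the spread between these samples, which may be technical.

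FOXO factors are transcription factors held in check by kinases. Growth factor receptors such as HER2 signal through PI3K to AKT, which phosphorylates FOXO proteins and keeps them in the cytoplasm. When that signal falls, FOXO proteins enter the nucleus and activate genes that slow the cell cycle, dampen PI3K and mTOR signaling and promote mitochondrial quality control. RNAseq reads the transcripts of these factors and targets, not the location or phosphorylation of the proteins. FOXA1 is a forkhead pioneer factor of luminal breast cells and shares much of its DNA motif with FOXO factors.

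Forkhead factors bind DNA at a short core that is commonly written GTAAACA. The promoters in RefSeq (GRCh38.p14, 250 bases before to 50 after each start) were searched for GTAAACA on both strands, and also for GTCAACA, which differs in 1 letter. Entries existed for 9 member genes with 16 promoters in all, and PINK1 had no entry. A GTAAACA match was found in the promoters of 3 of these 9 genes, and in 3.42% of all 35116 promoters or 4.19% of the 27305 genes with one. No member promoter held GTCAACA, which 2.32% of all promoters hold. The letters were matched exactly, and the same bases cannot match both motifs on one strand. All 3 matches in member promoters are shown, with 10 bases on either side. Each line runs 5′ to 3′ on the strand of the gene, and the capitals mark the motif or its reverse complement.
BTG1 (chr12:92146039-92146065, minus strand, motif at -209 to -203 from the start): cgggtttattTGTTTACaagcggatta
PIK3IP1 (chr22:31292456-31292482, minus strand, motif at 17 to 23): aaagagaggcTGTTTACcagaacagca
FOXO4 (chrX:71095864-71095890, plus strand, motif at 24 to 30): ccggcgagtgGTAAACAgagacgtcag
Such a match describes letters in a window and is not evidence of binding. Among 22 other genes listed as FOXO targets that had an entry, 4 held GTAAACA.

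The expected counts of a library, which are estimated numbers of reads, summed to between 25749578 and 32271850 (median 30542429). FOXA1 was lower in every library with FOXA1 siRNA, at 1159.8 to 1563 normalized counts in DMSO against 8307 to 8765 with NT siRNA, and at 1641 to 2383 in lapatinib against 12166 to 13173. The log2 fold changes of FOXA1 were -2.63 and -2.69. Markers of the line were as labelled, with ERBB2 at 2718 to 6105 TPM (a level scaled for transcript length and depth) and ESR1 at no more than 0.98 TPM. Of 6 genes of immune, stromal and endothelial cells, PTPRC, CD3E, COL1A2 and PECAM1 had at most 9 counts in any library, while COL1A1 had 240.0 to 546 and VWF 42 to 95.

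Lapatinib with NT siRNA raised 7 of the 10 genes and lowered none. PIK3IP1 rose 4.71-fold, FOXO3 3.67-fold, CCNG2 3.45-fold, BCL6 3.1-fold, FOXO4 3.03-fold, BTG1 2.85-fold and PINK1 2.43-fold, while FOXO1, SESN1 and SESN3 did not pass the test. The calls used the quasi-likelihood test of edgeR and a Benjamini-Hochberg adjusted p under 0.05 over all 13713 genes tested, of which 30.5% were called higher and 29.2% lower. With a log2 fold change of at least 1 also required, the same 7 genes were called, against 6.64% of all genes higher and 7.12% lower. No gene of the 10 was lower at an unadjusted p under 0.05, and DESeq2 also called 7 higher and 0 lower. The median log2 fold change of the 10 genes was 1.56, against 0.03 over all genes tested. The same 7 genes rose when FOXA1 siRNA had been given first, and 1 gene, SESN1, was lower there.

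**Figure D1:**
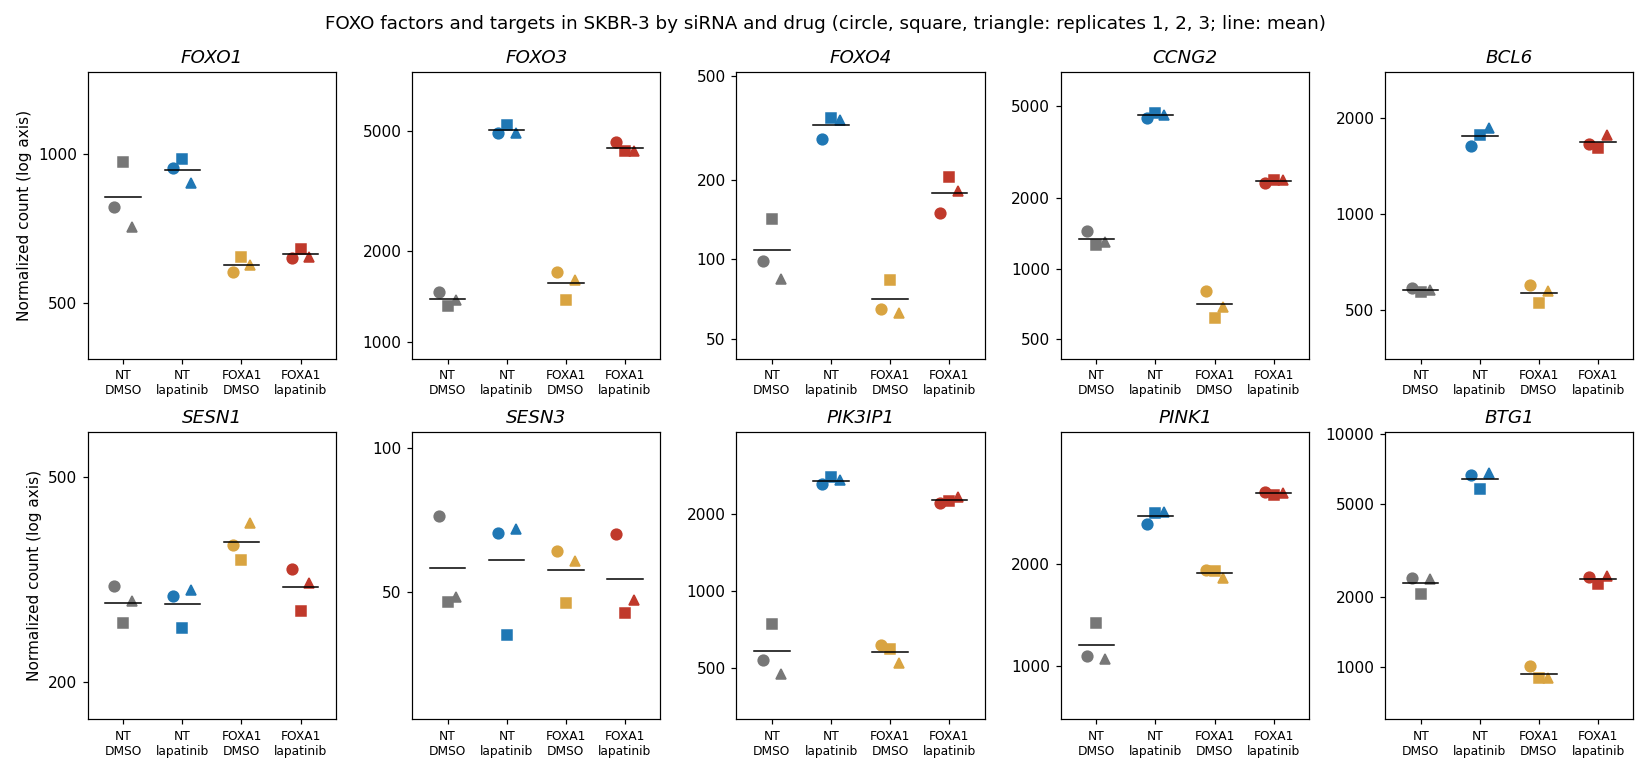
Normalized counts (log axis, a separate range in each panel) of the 10 genes in the 12 SKBR-3 samples, with the siRNA and the drug on the x axis. Circles, squares and triangles are replicates 1, 2 and 3 and lines are group means. Both lapatinib groups lie above the DMSO group with the same siRNA without overlap in all panels but those of FOXO1, SESN1 and SESN3. The share of all genes that separate in this way is not given. By the test, a different criterion, 7 of the 10 genes and 30.5% of all genes were called higher after lapatinib with NT siRNA. With FOXA1 siRNA they were 7 of the 10 and 29% of all genes.

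FOXO3, a widely expressed FOXO factor, lies on chromosome 6 at 108559825-108684774 (GRCh38.p14). Normalized counts of FOXO3 in DMSO were 1468, 1320.5 and 1383 in replicates 1, 2 and 3 with NT siRNA, and 1707, 1381 and 1609 with FOXA1 siRNA. In lapatinib FOXO3 was at 4934, 5231 and 4931 with NT siRNA and at 4596, 4277 and 4293 with FOXA1 siRNA. All 6 lapatinib samples stood far above all 6 DMSO samples. By edgeR (quasi-likelihood, Benjamini-Hochberg), the log2 fold change after lapatinib was 1.88 ± 0.06 (SE) with NT siRNA (adjusted p = 1.27e-06) and 1.49 ± 0.08 with FOXA1 siRNA (adjusted p = 4.53e-06). FOXO3B, a near-identical gene copy on chromosome 17 at 18667629-18682314, was also listed. Reads can be split between the copies, so the FOXO3 level and the size of its change are uncertain. FOXO3B counts were 68.6% ± 2.19 (SD, n = 3) of FOXO3 counts in NT DMSO, 46.9% ± 1.11 in NT lapatinib, 61.5% ± 0.894 in FOXA1 siRNA DMSO and 47.7% ± 1.93 in FOXA1 siRNA lapatinib. FOXO3B itself had log2 fold changes of 1.32 (NT siRNA) and 1.13 (FOXA1 siRNA) after lapatinib. Over all alternative fits the FOXO3 change after lapatinib ranged from 1.68 to 1.91 (NT siRNA) and from 1.37 to 1.56 (FOXA1 siRNA). These fits included one with FOXO3B counts added to FOXO3.

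FOXO4, which lies on chromosome X at 71095851-71103532, was the least abundant of these factors by TPM. Normalized counts of FOXO4 in DMSO were 98.5, 143 and 84.3 in replicates 1, 2 and 3 with NT siRNA, and 64.9, 83.7 and 62.8 with FOXA1 siRNA. In lapatinib FOXO4 was at 286, 345 and 341 with NT siRNA and at 149.8, 206 and 182 with FOXA1 siRNA. The lapatinib samples lay above the DMSO samples with either siRNA, and replicate 2 was the highest of each group. By edgeR (quasi-likelihood, Benjamini-Hochberg), FOXO4 changed by 1.60 ± 0.19 on the log2 scale with NT siRNA (adjusted p = 0.000177) and by 1.35 ± 0.17 with FOXA1 siRNA (adjusted p = 0.000264). The mean transcript length deposited for FOXO4 ranged from 2577 to 3321 bases between libraries, and a TPM value depends on it.

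FOXO1, on chromosome 13 at 40555667-40666641, is the FOXO factor best known from insulin signaling. Normalized counts of FOXO1 in DMSO were 780.0, 964 and 712 in replicates 1, 2 and 3 with NT siRNA, and 576, 619.5 and 596 with FOXA1 siRNA. In lapatinib FOXO1 was at 937, 981 and 875 with NT siRNA and at 615, 644 and 620.1 with FOXA1 siRNA. The DMSO and lapatinib groups overlapped with either siRNA, whereas every FOXA1 siRNA sample was below every NT sample. After lapatinib the log2 fold change was 0.21 ± 0.12 with NT siRNA, 95% interval -0.02 to 0.44 (adjusted p = 0.161, edgeR quasi-likelihood, Benjamini-Hochberg). Replicate 2 in NT DMSO was the highest sample of its group, and without it the change was 0.32 (adjusted p = 0.0108, edgeR quasi-likelihood, Benjamini-Hochberg). Blocking on the replicate number, FOXO1 also passed, at 0.21 ± 0.07 (adjusted p = 0.0357, edgeR quasi-likelihood, Benjamini-Hochberg). With FOXA1 siRNA the change was 0.08 ± 0.06, 95% interval -0.05 to 0.20. A long noncoding RNA on the same strand shares 1352 of the 5957 exonic bases of FOXO1. It was not listed separately, so its reads cannot be told apart from those of FOXO1.

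The shares of the 3 factors in their summed level shifted with lapatinib. The summed level of FOXO1, FOXO3 and FOXO4 was 24.4 ± 2.11 TPM in NT DMSO and 64.1 ± 3.75 TPM in NT lapatinib (SD, n = 3), and 22.9 ± 1.01 and 52.1 ± 1.38 TPM with FOXA1 siRNA. FOXO1 held 36.9% ± 2.99 of this sum in NT DMSO and 15.5% ± 0.661 in NT lapatinib. FOXO3 held 53.8% ± 6.47 and 74.3% ± 1.06 in these groups, and FOXO4 9.38% ± 3.54 and 10.2% ± 1.40. With FOXA1 siRNA the FOXO3 share was 65.1% ± 3.70 in DMSO and 80.3% ± 1.61 in lapatinib. The ranges of the FOXO1 and FOXO3 shares in DMSO and in lapatinib did not overlap with either siRNA, and those of FOXO4 did. FOXO3B was not counted in these shares, which depend on how reads were split between it and FOXO3.

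Among the targets that act on the cell cycle, CCNG2 encodes cyclin G2, an unconventional cyclin linked to cell cycle arrest (chromosome 4, 77157207-77170060). Normalized counts of CCNG2 in DMSO were 1446, 1264 and 1307 in replicates 1, 2 and 3 with NT siRNA, and 804, 617 and 688 with FOXA1 siRNA. In lapatinib CCNG2 was at 4416, 4649.8 and 4579 with NT siRNA and at 2323, 2394 and 2396 with FOXA1 siRNA. The 4 groups did not overlap at all, and both FOXA1 siRNA groups were below their NT counterparts. Lapatinib changed CCNG2 by 1.79 ± 0.06 with NT siRNA (adjusted p = 1.29e-06) and by 1.76 ± 0.09 with FOXA1 siRNA (adjusted p = 4.03e-06), log2 values by edgeR (quasi-likelihood, Benjamini-Hochberg).

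BTG1, an antiproliferative gene of quiescent cells, lies on chromosome 12 at 92140278-92145846. Normalized counts of BTG1 in DMSO were 2398, 2060.1 and 2378 in replicates 1, 2 and 3 with NT siRNA, and 1008, 895 and 898 with FOXA1 siRNA. In lapatinib BTG1 was at 6624, 5808 and 6777 with NT siRNA and at 2426, 2274 and 2459 with FOXA1 siRNA. The BTG1 counts of the group with FOXA1 siRNA and lapatinib overlapped with those of the group with NT siRNA and DMSO, and no other groups overlapped. The log2 fold change after lapatinib was 1.51 ± 0.08 with NT siRNA (adjusted p = 3.83e-06) and 1.36 ± 0.06 with FOXA1 siRNA (adjusted p = 3.16e-06), by edgeR (quasi-likelihood, Benjamini-Hochberg). A long noncoding RNA on the opposite strand, BTG1-DT, shares 274 exonic bases with BTG1 and LINC01619 shares 503 on the same strand. Neither is listed in the files, and the sources used here do not say if strand was used in counting, so their reads cannot be told apart from those of BTG1.

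BCL6, a transcriptional repressor that FOXO factors induce in lymphoid and other cells, lies on chromosome 3 at 187721377-187745468. Normalized counts of BCL6 in DMSO were 586, 569 and 576 in replicates 1, 2 and 3 with NT siRNA, and 597, 526 and 575 with FOXA1 siRNA. In lapatinib BCL6 was at 1638, 1776 and 1869 with NT siRNA and at 1667, 1610.4 and 1770.4 with FOXA1 siRNA. Here the samples separated by drug alone, and the siRNA groups overlapped. The log2 fold change after lapatinib was 1.63 ± 0.07 with NT siRNA (adjusted p = 2.04e-06) and 1.58 ± 0.07 with FOXA1 siRNA (adjusted p = 2.55e-06), by edgeR (quasi-likelihood, Benjamini-Hochberg). On the opposite strand, a protein-coding gene shares 316 and a long noncoding RNA 171 of the 5936 exonic bases of BCL6. Neither was listed separately, so the BCL6 level is uncertain to that extent.

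PIK3IP1, a transmembrane inhibitor of PI3K (chromosome 22, 31281593-31292534), had the largest change of the 10 genes in both lapatinib comparisons. Normalized counts of PIK3IP1 in DMSO were 535, 745 and 473 in replicates 1, 2 and 3 with NT siRNA, and 617, 595 and 522 with FOXA1 siRNA. In lapatinib PIK3IP1 was at 2619, 2800.4 and 2722 with NT siRNA and at 2223, 2246 and 2331 with FOXA1 siRNA. The DMSO groups overlapped, replicate 2 in NT DMSO being the highest, while each lapatinib sample with FOXA1 siRNA was below each with NT siRNA. By edgeR (quasi-likelihood, Benjamini-Hochberg), the change after lapatinib was 2.24 ± 0.15 with NT siRNA (adjusted p = 9.72e-06) and 1.98 ± 0.07 with FOXA1 siRNA (adjusted p = 1.49e-06) on the log2 scale.

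PINK1, the kinase that marks damaged mitochondria for removal, lies on chromosome 1 at 20633458-20651511. Normalized counts of PINK1 in DMSO were 1074, 1335 and 1049 in replicates 1, 2 and 3 with NT siRNA, and 1913, 1905 and 1818 with FOXA1 siRNA. In lapatinib PINK1 was at 2615, 2822 and 2848 with NT siRNA and at 3253, 3191 and 3234 with FOXA1 siRNA. All 4 groups were apart, and here the FOXA1 siRNA groups were the higher ones. After lapatinib PINK1 changed by 1.28 ± 0.10 with NT siRNA (adjusted p = 1.77e-05) and by 0.79 ± 0.04 with FOXA1 siRNA (adjusted p = 5.19e-06), log2 values by edgeR (quasi-likelihood, Benjamini-Hochberg). The antisense gene PINK1-AS, which the files do not list, shares 1907 of the 4833 exonic bases of PINK1, so the PINK1 level is uncertain to that extent.

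The sestrins SESN1 and SESN3 encode stress proteins that restrain mTORC1. SESN1 (chromosome 6, 108984309-109094846) had normalized counts of 307, 261 and 288 in NT DMSO, 295, 254 and 302 in NT lapatinib, 369.6, 346 and 408 in FOXA1 siRNA DMSO and 333, 275 and 312 in FOXA1 siRNA lapatinib. Samples with FOXA1 siRNA and DMSO were the highest and overlapped no other group. The log2 fold change of SESN1 after lapatinib was 0.01 with NT siRNA, 95% interval -0.20 to 0.23, and -0.28 ± 0.11 with FOXA1 siRNA (adjusted p = 0.0487, edgeR quasi-likelihood, Benjamini-Hochberg). The latter call was lost with DESeq2 and with 4 of 6 samples left out in turn, the range then being -0.34 to -0.20. SESN3 (chromosome 11, 95165513-95232475) had the fewest counts of the 10 genes, with 41 to 73 expected counts per library. Its changes after lapatinib were 0.07, 95% interval -0.45 to 0.60, with NT siRNA and -0.06, 95% interval -0.46 to 0.35, with FOXA1 siRNA. A change of up to about the ends of these intervals in SESN3 was not detectable at this depth. Unlisted noncoding RNAs on the opposite strand share 363 exonic bases with SESN1, 98 with SESN3 and 36 with PIK3IP1.

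**Figure D2:**
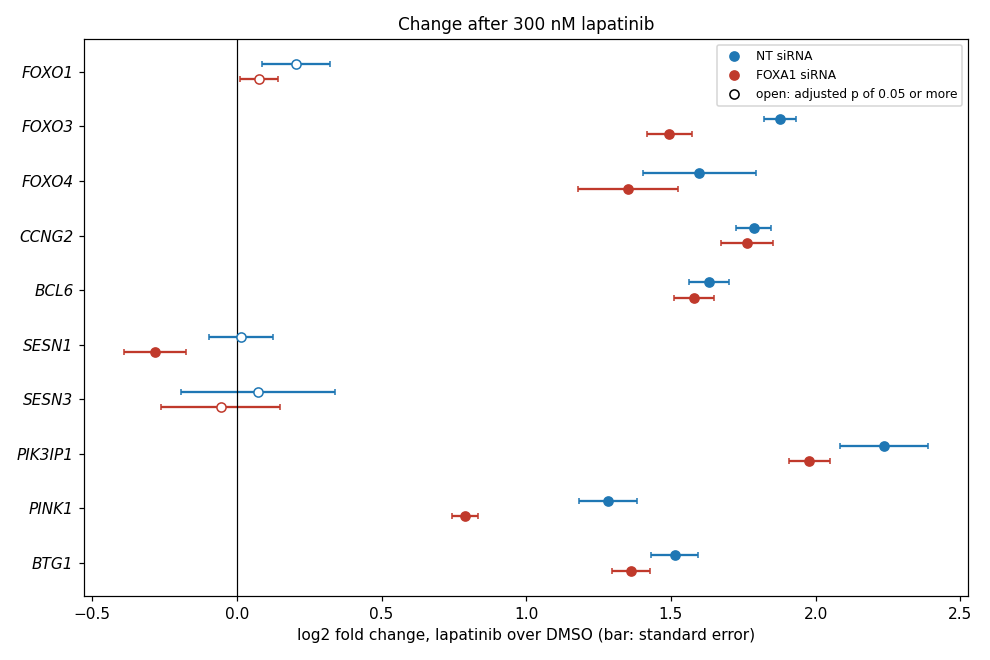
Log2 fold change of the 10 genes after lapatinib (lapatinib over DMSO, edgeR, bars are standard errors) in cells with NT siRNA (blue) and FOXA1 siRNA (red). Filled points passed an adjusted p under 0.05. FOXO3 was at 1.88 and 1.49 and PINK1 at 1.28 and 0.79 with NT and FOXA1 siRNA.

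With FOXA1 siRNA, lapatinib thus raised 7 of the 10 genes and lowered 1, while 29% of the 13745 genes tested were called higher and 29.1% lower. With a log2 fold change of at least 1 also required, 6 of the 10 were higher, all but PINK1 of the 7, and 0 lower, against 4.93% and 5.12% of all genes. The median over the 10 genes was 1.36, against 0.01 over all genes.

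The difference between the lapatinib responses with FOXA1 and NT siRNA was tested as an interaction in all 12 samples. FOXO3 and PINK1 responded less with FOXA1 siRNA, and no member responded more. The interaction was -0.37 ± 0.10 for FOXO3 (adjusted p = 0.0456) and -0.48 ± 0.11 for PINK1 (adjusted p = 0.0212), log2 values by edgeR (quasi-likelihood, Benjamini-Hochberg). It was called lower in 3.2% and higher in 3.99% of 14012 genes, and with a log2 size of at least 1 in 0.514% and 0.521%, where no member was called. DESeq2, and edgeR with the replicate block, gave the same counts of members, 2 lower and 0 higher. No member was higher at an unadjusted p under 0.05. The shares of all genes are those of edgeR without the block. Within replicates 1, 2 and 3 the FOXO3 difference was -0.32, -0.36 and -0.42, and that of PINK1 -0.52, -0.34 and -0.61. Both calls were close to the threshold. FOXO3 lost its call in 11 of 12 fits that left out 1 sample each (-0.45 to -0.30), all but the one without replicate 2 of FOXA1 siRNA DMSO, and when FOXO3B counts were added to it (-0.30, adjusted p = 0.109, edgeR quasi-likelihood, Benjamini-Hochberg). PINK1 lost it in 5 of 12 such fits (-0.60 to -0.42), those without replicate 1 or 3 of NT DMSO, replicate 3 of NT lapatinib or replicate 1 of either FOXA1 siRNA group.

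For the other 8 genes the interaction did not pass, which does not show that their responses were alike. Its 95% interval was -0.23 to 0.21 for CCNG2, -0.22 to 0.15 for BCL6, -0.35 to 0.08 for BTG1, -0.38 to 0.15 for FOXO1 and -0.58 to 0.02 for SESN1. The interval was -0.77 to 0.30 for FOXO4 and -0.79 to 0.56 for SESN3, the genes with the fewest counts. PIK3IP1 was at -0.25 ± 0.18, and without replicate 2 of NT DMSO at -0.46 (adjusted p = 0.0182, edgeR quasi-likelihood, Benjamini-Hochberg).

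Of the genes that lapatinib raised, FOXA1 siRNA in DMSO lowered BTG1 and CCNG2 and raised PINK1. The counts of members called there were near the shares of all genes. In DMSO, 3 of the 10 genes were lower, BTG1, CCNG2 and FOXO1, and 2 higher, PINK1 and SESN1, against 21.3% lower and 21.9% higher of 13694 genes tested. In lapatinib, 6 were lower, BTG1, CCNG2, FOXO4, FOXO1, PIK3IP1 and FOXO3, and 1 higher, PINK1, against 22.2% lower and 22.7% higher of 13727 genes. With a log2 fold change of at least 1 also required, BTG1 alone was lower in each of the siRNA comparisons and none was higher, against 2.77% lower and 4.06% higher of all genes in DMSO and 3.9% lower and 4.5% higher in lapatinib. The median log2 fold change of the 10 genes was -0.01 in DMSO and -0.24 in lapatinib, and that of all genes -0.01 in both. The siRNA comparisons use the same samples as the lapatinib comparisons, so their values are given side by side and are not independent of them.

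The largest siRNA differences were in BTG1 and CCNG2. BTG1 changed by -1.27 ± 0.08 in DMSO (adjusted p = 1.78e-05) and by -1.43 ± 0.07 in lapatinib (adjusted p = 7.26e-06), log2 values by edgeR (quasi-likelihood, Benjamini-Hochberg). CCNG2 changed by -0.92 ± 0.10 (adjusted p = 0.000276) and by -0.95 ± 0.04 (adjusted p = 6.11e-06) by edgeR (quasi-likelihood, Benjamini-Hochberg). BCL6 had values of -0.02 and -0.07 and passed in neither.

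Among the factors, FOXO1 was lower by -0.44 ± 0.12 in DMSO (adjusted p = 0.0167) and -0.58 ± 0.07 in lapatinib (adjusted p = 0.000266), by edgeR (quasi-likelihood, Benjamini-Hochberg). FOXO1 in DMSO lost its call without replicate 1 or 3 of FOXA1 siRNA DMSO, at -0.42 and -0.44. FOXO4 was at -0.61 ± 0.23 in DMSO (adjusted p = 0.0671, and 0.00365 with the replicate block) and at -0.86 ± 0.14 in lapatinib (adjusted p = 0.00143), by edgeR (quasi-likelihood, Benjamini-Hochberg). FOXO3 was at 0.18 ± 0.08 in DMSO (adjusted p = 0.106, and 0.00729 with the replicate block) and at -0.21 ± 0.05 in lapatinib (adjusted p = 0.0101), by edgeR (quasi-likelihood, Benjamini-Hochberg). FOXO3 values with FOXA1 siRNA thus lay above those with NT siRNA in DMSO, with overlap, and below them in lapatinib, without.

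PINK1 was higher with FOXA1 siRNA by 0.72 ± 0.10 in DMSO (adjusted p = 0.000771) and by 0.22 ± 0.05 in lapatinib (adjusted p = 0.00709), by edgeR (quasi-likelihood, Benjamini-Hochberg). PIK3IP1 differed by -0.00 ± 0.17 in DMSO and by -0.27 ± 0.05 in lapatinib (adjusted p = 0.00243), and with all 12 samples in one model the latter was -0.26 (adjusted p = 0.0913), by edgeR (quasi-likelihood, Benjamini-Hochberg). SESN1 was higher by 0.41 ± 0.10 in DMSO (adjusted p = 0.0124) by edgeR (quasi-likelihood, Benjamini-Hochberg), a call that was lost without replicate 3 of FOXA1 siRNA DMSO (0.34), and it was at 0.10 ± 0.11 in lapatinib. SESN3 was at -0.00 and -0.14, with 95% intervals of -0.43 to 0.42 and -0.64 to 0.36.

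**Figure D3:**
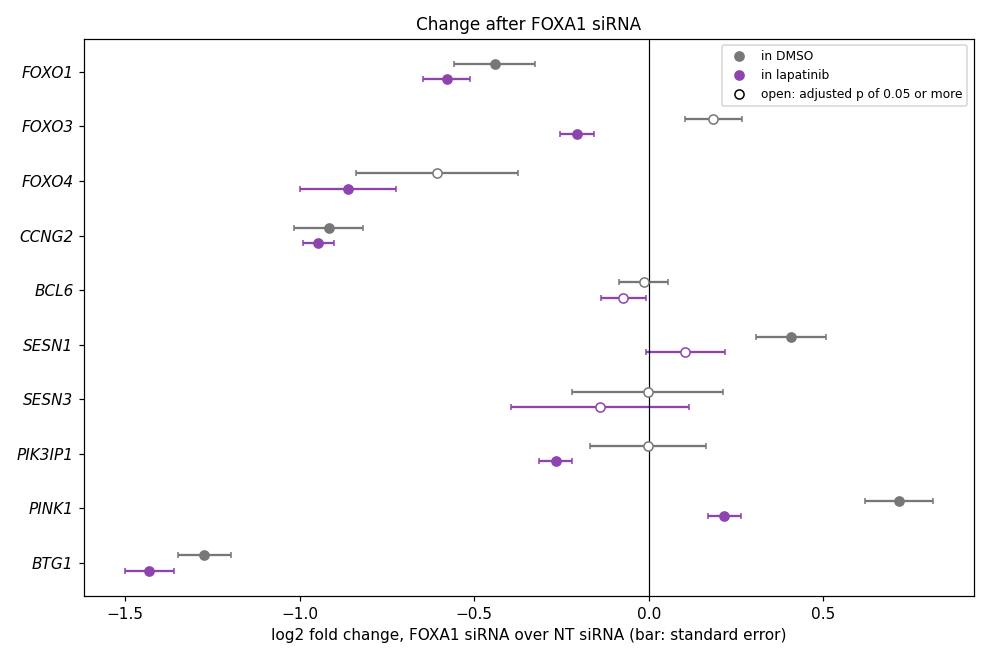
Log2 fold change of the 10 genes after FOXA1 siRNA (FOXA1 over NT siRNA, edgeR, bars are standard errors) in DMSO (grey) and in lapatinib (purple). Filled points passed an adjusted p under 0.05. BTG1 lay at -1.27 and -1.43 and CCNG2 at -0.92 and -0.95, while PINK1 lay at 0.72 and 0.22.

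Levels per transcript length placed the genes in a different order in each group. In NT DMSO, BTG1 (30.3 ± 1.91 TPM) and PINK1 (28.8 ± 4.71 TPM) were highest with overlapping ranges, followed by CCNG2 at 21.1 ± 0.570, PIK3IP1 at 15.4 ± 4.24 and FOXO3 at 13.0 ± 0.602 TPM (SD, n = 3). PIK3IP1 and FOXO3 overlapped, and below them BCL6 at 10.9 to 11.2, FOXO1 at 9.03 and SESN1 at 6.57 TPM were apart from their neighbours, while FOXO4 at 2.33 and SESN3 at 1.79 TPM overlapped. In NT lapatinib, BTG1 stood alone at 83.9 ± 5.92 TPM. PIK3IP1 at 69.4, PINK1 at 68.2 and CCNG2 at 65.9 TPM did not separate there, and FOXO3 followed at 47.6 and BCL6 at 33.2 TPM. FOXO1 was next at 9.93 TPM, and FOXO4 at 6.54 overlapped with SESN1 at 6.42 TPM, SESN3 being lowest at 1.84 TPM.

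With FOXA1 siRNA PINK1 was the most abundant of the 10 genes with either drug, at 48.4 ± 1.70 TPM in DMSO and 81.6 ± 1.35 TPM in lapatinib. In FOXA1 siRNA DMSO, each of PIK3IP1 at 15.2, FOXO3 at 14.9, BTG1 at 12.5, CCNG2 at 10.9 and BCL6 at 10.9 TPM overlapped with the next in this order. SESN1 at 8.77 and FOXO1 at 6.50 TPM were apart from both neighbours, and SESN3 at 1.81 and FOXO4 at 1.45 TPM overlapped. In FOXA1 siRNA lapatinib, PIK3IP1 at 58.4, FOXO3 at 41.8 and CCNG2 at 34.5 TPM were separate. BCL6 at 31.8 and BTG1 at 31.3 TPM overlapped, as did SESN1 at 6.98 and FOXO1 at 6.69 TPM, and FOXO4 was at 3.58 and SESN3 at 1.68 TPM.

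Close relatives of the members were also listed. Of 5 such genes FOXO6 was not in the files, and CCNG1, BCL6B, SESN2 and BTG2 were tested. After lapatinib with NT siRNA CCNG1, a p53-responsive cyclin G, was at 0.46 ± 0.08 and BTG2 at 0.63 ± 0.11, both called higher, and BCL6B at -1.57 ± 0.37, called lower. SESN2 at 0.19 ± 0.10 did not pass. With FOXA1 siRNA, lapatinib gave CCNG1 0.40 ± 0.05, called higher, BCL6B -0.87 ± 0.24, called lower, and BTG2 0.22 ± 0.12 and SESN2 -0.33 ± 0.16, neither called. CCNG1 had values opposite to those of CCNG2 after FOXA1 siRNA, at 0.75 ± 0.06 in DMSO and 0.68 ± 0.07 in lapatinib, both called higher. SESN2 was called higher in DMSO at 0.34 ± 0.12 and was at -0.20 in lapatinib, and BCL6B, at -0.43 and 0.27, was called in neither. BTG2 was called lower in both, at -0.44 ± 0.10 and -0.86 ± 0.12, as BTG1 was.

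A wider list of 28 genes described as FOXO targets in various tissues was written from general knowledge. Like the members and the lists below, it was chosen with earlier results of these data known. Its counts therefore describe the list beside all genes and are not a test of it. G6PC, IGFBP1, PCK1 and TRIM63, which are liver or muscle genes, had at most 8 counts in any library and were not tested. Lapatinib with NT siRNA raised 19 of the 24 tested and lowered 2, with a median of 1.05, against 30.5% higher and 29.2% lower of all genes. With FOXA1 siRNA it also raised 19 and lowered 2, with a median of 0.99, against 29% and 29.1%. IRS2, an adaptor of insulin signaling, was at 3.90 ± 0.23 with NT siRNA and 3.14 ± 0.19 with FOXA1 siRNA, from 10.4 normalized counts in NT DMSO. TXNIP, an inhibitor of thioredoxin and glucose uptake, was at 2.60 ± 0.10 and 1.86 ± 0.05. The insulin receptor gene INSR was at 1.92 ± 0.18 and 1.06 ± 0.09, and ERBB3, the partner receptor of HER2, at 1.23 ± 0.07 and 1.09 ± 0.06.

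Other named targets act on the cell cycle or on survival. MXI1, an antagonist of MYC, was at 1.56 ± 0.11 with NT siRNA and 1.57 ± 0.08 with FOXA1 siRNA. CITED2 was at 1.01 ± 0.09 and 1.08 ± 0.07, and BCL2L11, which encodes the pro-apoptotic protein BIM, at 1.05 ± 0.12 and 0.83 ± 0.07. CDKN1B, encoding the cell cycle inhibitor p27, was at 0.74 ± 0.07 and 0.71 ± 0.05, and RBL2, encoding the pocket protein p130, at 0.72 ± 0.09 and 0.86 ± 0.07. These 9 genes were called higher in both lapatinib comparisons. The 2 genes called lower in both, named after their values were seen, were KLF2 (-1.66 with NT siRNA and -0.91 with FOXA1 siRNA) and SOD2 (-0.42 and -0.29). CDKN1A (0.17 and -0.19), DDIT4 (0.05 and -0.05) and KLF6 (-0.19 and 0.13) were called in neither. The interaction was called in 4 of the 24, all lower, against 3.2% lower and 3.99% higher of all genes. They were CAT (-0.62), FBXO32 (-0.92), INSR (-0.85) and TXNIP (-0.73), of which CAT and FBXO32 were picked out after their values were seen. Without the replicate block none of the 24 was called higher by edgeR or DESeq2, and 2 were higher at an unadjusted p under 0.05. With the block edgeR called 3 higher and 5 lower, and the shares of all genes are those of edgeR without it.

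**Figure D4:**
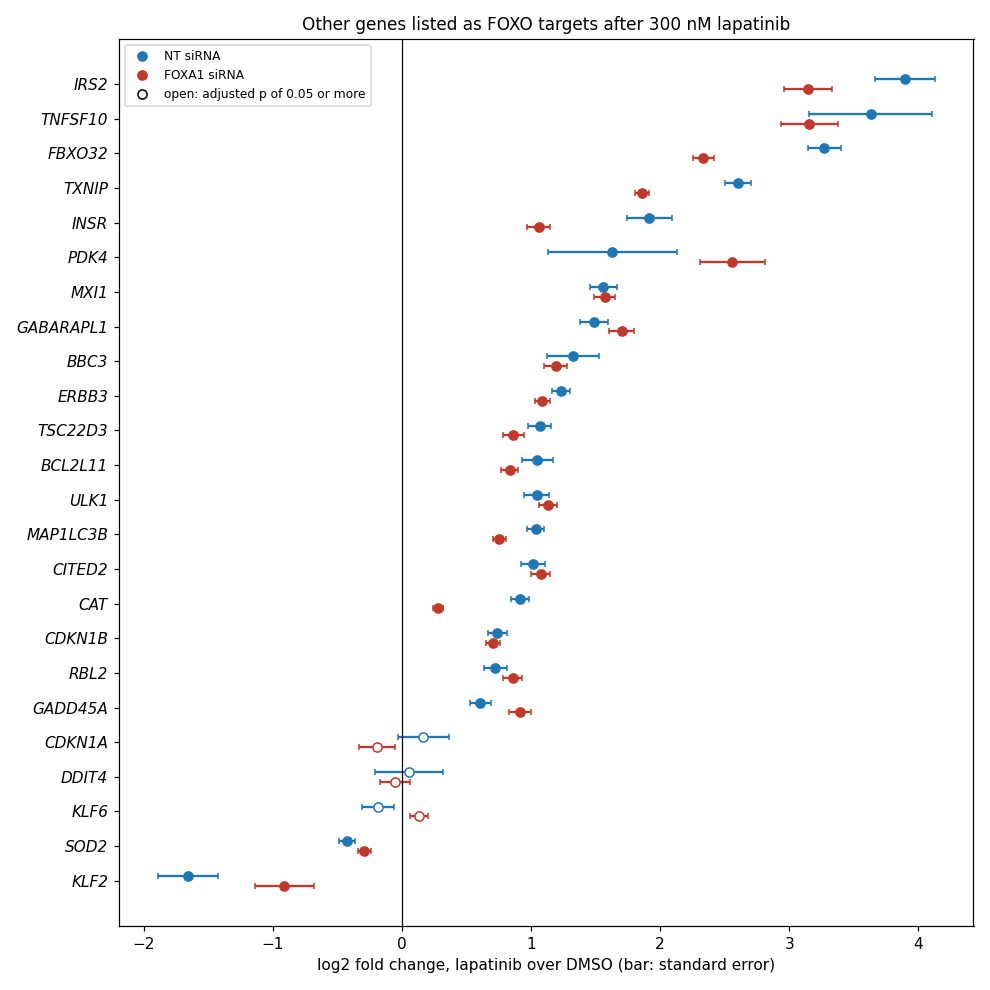
Log2 fold change after lapatinib of the 24 tested genes of the wider FOXO target list (edgeR, bars are standard errors), ordered by the value with NT siRNA (blue), with FOXA1 siRNA in red. Filled points passed an adjusted p under 0.05. Of the 24 genes, 19 lay above 0 and 2 below it with filled points in each comparison.

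After FOXA1 siRNA 7 genes of the same list were higher and 8 lower of 24 in DMSO (median 0.14), against 21.9% and 21.3% of all genes. In lapatinib 5 were higher and 9 lower (median -0.03), against 22.7% and 22.2%, so that the shares called higher were near those of all genes. ERBB3 had the largest change among the named ones, at -1.21 ± 0.06 in DMSO and -1.36 ± 0.07 in lapatinib. CITED2 at -0.42 and -0.37, BCL2L11 at -0.31 and -0.53 and CDKN1B at -0.23 and -0.27 were called lower in both. INSR at 0.84 and TXNIP at 0.59 were called higher in DMSO, and in lapatinib INSR was at -0.02, not called, and TXNIP at -0.16, called lower.

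Of the 19 genes tested that control FOXO activity, 8 were higher and 6 lower after lapatinib with NT siRNA (median 0.13), against 30.5% higher and 29.2% lower of all genes. With FOXA1 siRNA 9 were higher and 4 lower (median 0.13), against 29% and 29.1%. With the replicate block these counts were 11 and 6, and 10 and 5, and the shares of all genes are those without the block. AKT1, the main kinase that phosphorylates FOXO proteins, was at -0.55 ± 0.05 and -0.42 ± 0.06, and SGK1, a related kinase, at -1.06 ± 0.34 and -1.43 ± 0.31, each called lower. AKT2 was at -0.16 ± 0.05, called lower, and -0.09 ± 0.05, not called. SKP2, a ubiquitin ligase subunit that targets FOXO1 and p27, was at -1.05 ± 0.13 and -0.72 ± 0.10, called lower. PIK3CA, the catalytic subunit of PI3K, was higher at 0.58 ± 0.05 and 0.52 ± 0.07, and its regulatory subunit PIK3R1, at 0.05 and 0.13, was called in neither.

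After FOXA1 siRNA 1 of these 19 regulators was higher and 5 lower in DMSO (median -0.07), against 21.9% and 21.3% of all genes. In lapatinib 1 was higher and 7 lower (median -0.05), against 22.7% and 22.2%. With the replicate block 5 were higher and 8 lower in each, and the shares of all genes are those without the block. AKT1 was at -0.52 ± 0.06 and -0.40 ± 0.05, called lower in both. For the interaction, no regulator was called by edgeR without the block or by DESeq2, 3 were higher and 2 lower at an unadjusted p under 0.05, and edgeR with the block called 3 higher and 2 lower. By edgeR without the block 3.99% of all genes were higher and 3.2% lower, and shares for the other counts are not given.

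Genes of dividing cells changed in the direction opposite to that of the 7 members raised by lapatinib. All 10 proliferation genes tested were lower after lapatinib with either siRNA, against 29.2% of all genes with NT siRNA and 29.1% with FOXA1 siRNA. Their medians were -1.59 and -1.06. MKI67 was at -1.60 ± 0.26 and -1.13 ± 0.13, and FOXM1, a forkhead factor of dividing cells, at -1.57 ± 0.19 and -1.09 ± 0.14. The summed level of the 10 genes was 1136 to 1416 TPM in NT DMSO and 355 to 580.1 in NT lapatinib. With FOXA1 siRNA it was 903 to 1019.8 TPM in DMSO and 469 to 687 in lapatinib. In bulk RNA, a change in the share of cells that are arrested and a change in RNA per cell cannot be told apart, and the part of either in the member values was not tested. After FOXA1 siRNA 1 of the 10 was higher and 6 lower in DMSO, against 21.9% and 21.3% of all genes. In lapatinib 2 were higher and 2 lower, against 22.7% and 22.2%. With the replicate block 1 was higher and 9 lower in DMSO, and 5 were higher and 4 lower in lapatinib, and the shares of all genes are those without the block. The interaction was called in none of the 10 by edgeR without the block, in 4 with it and in 1 by DESeq2, and at an unadjusted p under 0.05 in 5, all higher. By edgeR without the block it was higher in 3.99% and lower in 3.2% of all genes. Shares for the other counts are not given.

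The genes whose pattern was most like each FOXO factor were sought among 10812 genes with a mean normalized count of at least 100, by the root mean square difference of centred log2 values over the 12 samples. For FOXO3 they were CD55, a complement regulator (0.09), the transcription factor HBP1 (0.10) and BCL6 (0.12), where FOXO3 itself varied by 0.85 around its mean. HBP1 had changes of 1.94 and 1.45 after lapatinib with NT and FOXA1 siRNA, and CD55 of 1.78 and 1.40. For FOXO1 they were SOX13 (0.08), TK2 (0.09) and NCKAP5L (0.09), where FOXO1 varied by 0.28. For FOXO4 they were SECTM1 (0.13), NUPR1 (0.17) and SNED1 (0.20), where FOXO4 varied by 0.85. The samples of a group share their treatment, so this likeness describes group means more than single samples.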

How the data were processed

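The labels of the samples gave groups and replicate numbers. Each library came with an expected count per gene as the authors deposited it (estimated reads, 87.5% to 88.1% of values whole), with TPM, and with FPKM and an upper-quartile signal, deposited columns that were not used here. STAR on hg38 and Salmon are named in the methods, the deposited columns are those of RSEM, and the processing notes name RSEM, R 3.2.2 and DESeq2 1.12.3. The labels name different library kits in different fields, and give 48 h between siRNA and drug where the methods give 24 h.

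Expected counts were rounded to whole numbers and tested in R 4.3.3 with edgeR 4.0.16 (quasi-likelihood test, TMM scaling, a minimum of 10 counts in 1 or more fitted samples, Benjamini-Hochberg adjustment over all genes tested). Genes listed by Entrez ID without a symbol (29, at most 0.0459% of a library) entered the fits. Each comparison used its own 6 samples, and the interaction all 12. The standard error is the log2 fold change over the root of its F statistic, and 95% intervals as 1.96 standard errors. Normalized counts are counts divided by the TMM-scaled depth of the library, set to the mean depth. Exact permutation of 3 against 3 samples cannot go below p = 0.1 and was not used. TPM were used as the authors deposited them, to compare levels between genes. Counting error at this depth leaves genes under 3 counts undetectable, and intervals of counts would cover counting error only.

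All 10 members were named, with their relatives, 9 further FOXO targets, 6 regulators, FOXA1, MKI67, FOXM1 and the 3 nearest genes of each FOXO factor. Other genes of the wider FOXO target list were named where few were called or tested, after their values were seen. Some genes covered by the naming rule are not reported here. The members and lists were chosen with earlier results of these data known. The main fits did not pair samples by replicate number, and only the replicate block and the differences within replicates did. That pairing was used because deviations from the group mean were correlated between samples with one number over 10812 genes. For all 18 such pairs r was 0.267 to 0.696, with a mean of 0.427, against a mean of -0.199 for different numbers. The labels do not say what the numbers stand for. Alternatives in scaling and tool were RLE and upper-quartile scaling and DESeq2 1.42.0. Alternatives in the filter were no filter on low counts and at least 10 counts in every sample. Further ones were all 12 samples in one model, the replicate block, a fold-change minimum and each sample left out. The sum of FOXO3 and FOXO3B counts was an alternative chosen after seeing the data. Procedures were tested on simulated data. Tables and plots used Python 3.11.15, pandas 2.3.3, numpy 2.4.6, scipy 1.17.1 and matplotlib 3.10.9. Exonic overlaps were read from GENCODE 44.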

Additional observations from a re-analysis of the deposited data

Results flagged for a closer look

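The response of FOXO3 to lapatinib differed between NT and FOXA1 siRNA, with an interaction of -0.37 on the log2 scale. PINK1 differed in the same direction, with an interaction of -0.48. Both were singled out because the interaction passed an adjusted p under 0.05 by edgeR (quasi-likelihood, Benjamini-Hochberg). Both had the same sign within each of the 3 replicate numbers, as did BCL6, SESN1 and BTG1, which were not called. The FOXO3 call was lost in 11 of 12 fits that left out 1 sample each and when FOXO3B counts were added, and the PINK1 call in 5 of 12 such fits. These fits did not use the replicate block, which with all samples gave 2 members lower and 0 higher.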

How the results depend on the processing

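Among the alternatives that kept all samples, 330 values of single genes kept their direction and call, 6 changed sign, 4 gained a call and 5 lost one. SESN1, the 1 gene lower after lapatinib with FOXA1 siRNA, was no longer called (count 0) with upper-quartile scaling (-0.28), DESeq2 (-0.29) or no filter on low counts (-0.29). Requiring a log2 fold change of at least 1 left 0 lower in that comparison, 0 higher and 1 lower after FOXA1 siRNA in DMSO, 0 higher and 1 lower after FOXA1 siRNA in lapatinib, and 0 lower for the interaction. Summing FOXO3 and FOXO3B counts left 1 gene, PINK1, lower for the interaction, with FOXO3 at -0.30. The sign changes were in genes near 0. SESN1 after lapatinib with NT siRNA was at -0.0055 with RLE scaling, -0.0056 with DESeq2, -0.018 with no filter and -0.0092 with all 12 samples in one model. With the replicate block, SESN3 and PIK3IP1 after FOXA1 siRNA in DMSO were at 0.0063 and 0.013. The block also brought FOXO1 after lapatinib with NT siRNA (0.21) and FOXO3 (0.18) and FOXO4 (-0.60) after FOXA1 siRNA in DMSO past the threshold, and changed no other call of the 10 genes. The causes were not tested.

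Leaving out each sample in turn gave 0 to 1 gene lower after lapatinib with FOXA1 siRNA, 7 to 8 higher after lapatinib with NT siRNA, 1 to 3 higher and 2 to 4 lower after FOXA1 siRNA in DMSO and 0 to 2 lower for the interaction. FOXO4 after FOXA1 siRNA in DMSO ranged from -0.76 to -0.35 and passed without replicate 3 of NT DMSO (-0.76), and FOXO3 there passed without replicate 2 of FOXA1 siRNA DMSO (0.26). The values that changed sign were SESN1 (-0.068 to 0.091) and SESN3 (-0.053 to 0.29) after lapatinib with NT siRNA, SESN3 with FOXA1 siRNA (-0.23 to 0.060), BCL6 (-0.056 to 0.029), SESN3 (-0.10 to 0.21) and PIK3IP1 (-0.14 to 0.22) after FOXA1 siRNA in DMSO, and CCNG2 (-0.096 to 0.098), BCL6 (-0.088 to 0.0073) and SESN3 (-0.33 to 0.013) for the interaction. SESN3 and FOXO4 had the fewest counts of the 10 genes, which limits the precision of their values.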
